A study of Homo sapiens with 2 samples.

Results

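The potassium channel family comprises the genes whose symbols begin with KCN, which encode the pore-forming subunits of potassium channels and many of the small subunits that bind to them. Of the 16005 genes in the authors' deposited table, 50 carry such a symbol. The antisense RNA genes KCNK15-AS1 and KCNQ1OT1 were left out by their suffix, which leaves 48 members, all annotated as protein-coding. They were measured in BE(2)-C, an established human neuroblastoma cell line labelled wild type, as polyadenylated RNA. One culture condition was EMEM/F12, a classical medium, and the other was HPLM, a medium formulated to resemble human plasma. Cells spent 7 days in the medium, and the antibiotic mix penicillin-streptomycin (1%) and fetal bovine serum (10%) were added to both. GEO lists a single sample for each medium, while the table holds 3 libraries for each. Whether the libraries came from separate cultures is not stated in the labels. The p-values below therefore reflect the spread among libraries alone, and that spread may be technical.

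Potassium channels let potassium ions leave or enter cells along their electrochemical gradient. They set the resting membrane potential, end action potentials and pace firing. Voltage-gated channels open on depolarisation, calcium- and sodium-activated channels open with the ion inside the cell, inward rectifiers pass current best near the resting potential, and tandem-pore channels carry a steady leak. Cells derived from the sympathoadrenal lineage, as neuroblastoma is, use several of these classes to control excitability and catecholamine release.

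Levels are given as normalised reads, meaning read counts divided by 1 factor per library. A pair of values joined by ± is a mean and its SD (n = 3 libraries). A change is the log2 of the HPLM mean over the EMEM/F12 mean, with its SE. "Rose" and "fell" describe HPLM relative to EMEM/F12, and are used only for an adjusted p under 0.05 according to the authors' deposited table. Such values are shares of a library's RNA, so fewer expressing cells and less RNA per cell cannot be told apart. The libraries held 17504237 to 21676080 reads, and 3 reads, the limit that a count of 0 allows, corresponded to 2.68 to 3.49 normalised reads, for counting error only. All 14 sympathoadrenal and neuroblastoma markers that were checked had values in the table, with a summed level of 273687 to 318713 normalised reads in EMEM/F12 and 236572 to 245885 in HPLM. Of these markers, 10 fell and 3 rose.

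EMEM/F12 library 3 stood apart from libraries 1 and 2 of its medium. The summed level of 9 fibroblast markers was 38287 and 40372 normalised reads in libraries 1 and 2 and 87451 in library 3, and it ran from 72673 to 80079 in HPLM. COL1A1, THY1 and COL1A2 were the most abundant of these markers, and 1 of the 9 rose (THY1) and 1 fell (LUM). In EMEM/F12 libraries 1 to 3 THY1 was at 8115, 7901 and 7532 normalised reads and LUM at 160, 153 and 153. Neither was thus raised in library 3, whereas all the other listed fibroblast markers were. Endothelial markers were represented by TEK alone, at 1.03, 12.8 and 32.1 normalised reads in EMEM/F12 libraries 1 to 3 and 25.9 to 36.1 in HPLM. Of the Schwann and glial markers 4 of 6 had values, summing to 153 to 189 normalised reads in EMEM/F12 and 308 to 315 in HPLM, and of the epithelial markers 3 of 6, at 157 to 201 and 279.8 to 305. CD14, the 1 blood marker with a value of 7 listed, lay at 58.1 to 74.4 normalised reads in EMEM/F12 and 43.8 to 66.5 in HPLM. The call of a member without EMEM/F12 library 3 is therefore also given where it differs. Sizes of change without that library are given for some members only. The fibroblast marker sum of EMEM/F12 library 3 exceeds that of every HPLM library. Against that library alone, the ratios of all 33 members called below had the same sign, although it is part of the EMEM/F12 mean. That sign was fixed beforehand, because the media did not overlap in any of these 33 members. The part of the fibroblast markers in the calls was not tested. The log2 ratio against EMEM/F12 library 3 shrank for KCNH2 from -0.38 to -0.15 and for KCNH4 from -0.22 to -0.06.

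The family divided almost evenly in HPLM. The authors' deposited table called 33 of the 48 members, of which 16 rose and 17 fell, together 68.8%, where 55.6% of all 16004 genes with a p-value passed (26.8% rose and 28.8% fell). At least 2-fold, 8 members (16.7%) rose and 11 (22.9%) fell, against 5.39% and 6.72% of all genes. The median log2 ratio over the members was 0.10, beside 0.01 over all genes, and the median of its absolute size was 0.73, beside 0.37. The sign of the first median was not stable, since the median log2 fold change was -0.221 for members with a mean of at least 50 normalised reads and -0.00334 without EMEM/F12 library 3. The members had a median level of 127 normalised reads and all genes one of 342. In 34 of the 48 members (70.8%) the libraries of the media did not overlap, as in 68.6% of all genes. Of the 29 members with a mean of at least 50 normalised reads 10 rose (34.5%, against 31.1% of genes at that level) and 15 fell (51.7% against 33.7%), together 86.2% against 64.8%. At least 2-fold, 3 of these members rose and 9 fell (10.3% and 31.0%, against 4.28% and 5.99%), and the media did not overlap in 25 of them (86.2% against 75.2%). The edgeR quasi-likelihood test with TMM scaling called 35 members, 17 higher and 18 lower, together 72.9% against 64.2% of all genes (32.9% higher and 31.3% lower). A weakly expressed gene can enter the table through 1 medium only, so the low members that rose most (KCND3, KCNJ3, KCNE4 and KCNA2) are no sample of all silent channel genes. Leaving out EMEM/F12 library 3 gave 16 higher and 17 lower as well, with KCNK2 and KCNQ1 called in place of KCNH8 and KCNK1, in DESeq2 on reads recovered from the table.

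**Figure D1:**
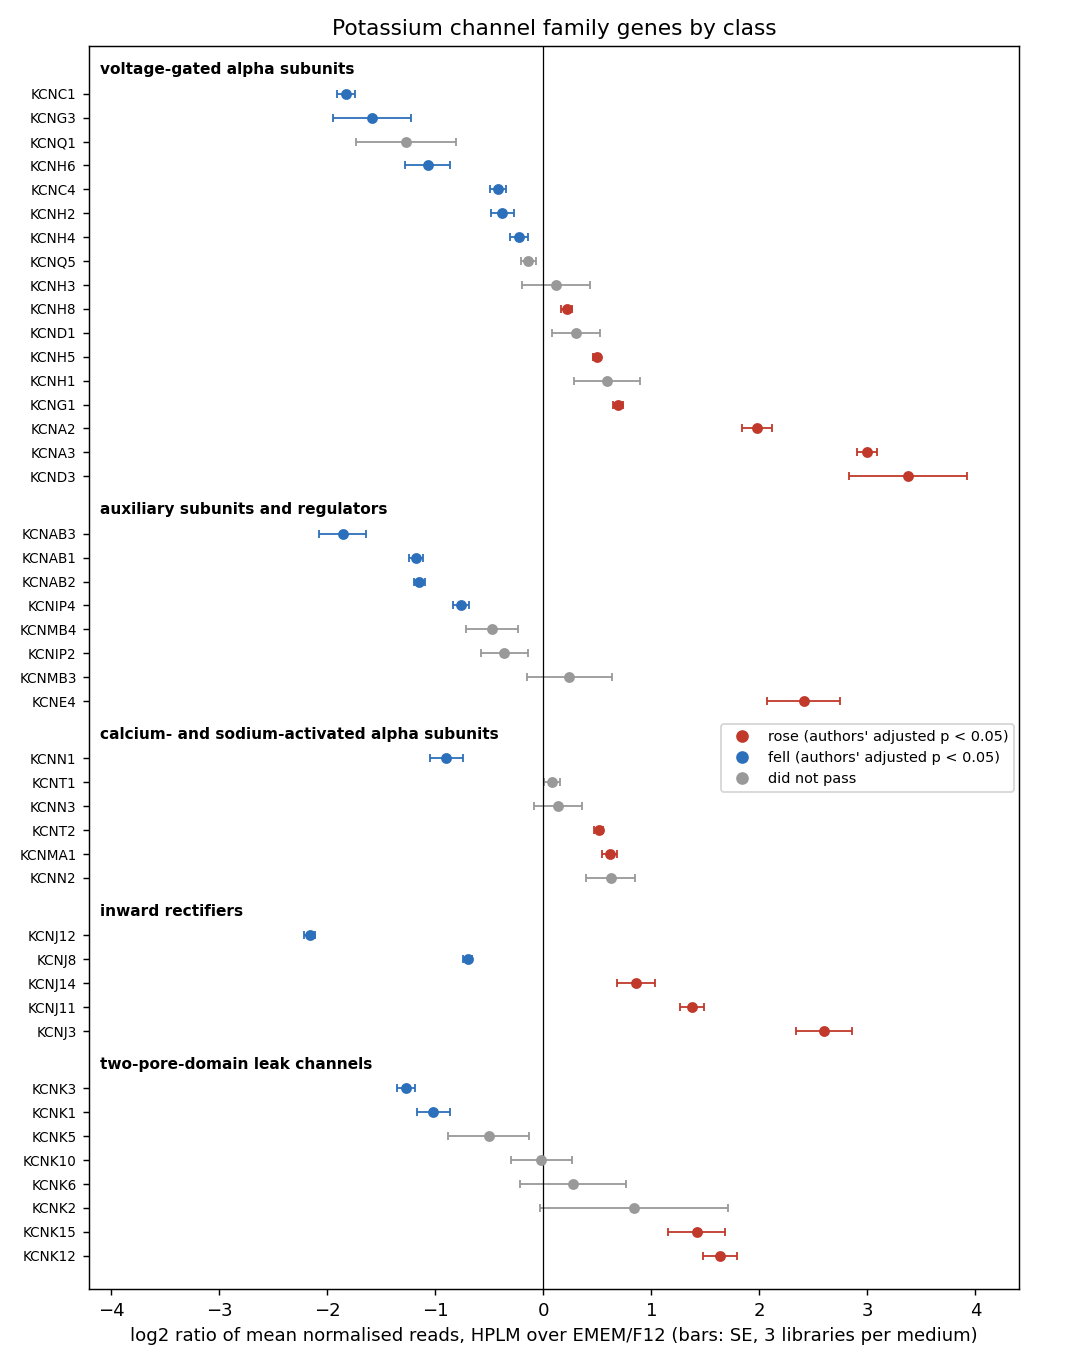
Each point is the log2 ratio of mean normalised reads, HPLM over EMEM/F12, of 1 of 44 members, grouped by class, with the SE over 3 libraries per medium as bars. Red points rose (14), blue points fell (15) and grey points did not pass (15), and every class holds members that rose and members that fell.

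Promoter windows of 250 bases before to 50 after the annotated start were available for 34 of the 48 members, from RefSeq on GRCh38.p14. For a gene with several starts the window nearest the gene's start in GENCODE was used, which for KCNAB1, KCNH5 and KCNN2 still lay 82847, 56579 and 306525 bases away. The part before the start of both annotations is shown for the member with the largest rise at a mean of at least 50 normalised reads and for a voltage-gated and a leak channel gene that fell. Capitals mark GC boxes, written GGGCGG or its reverse complement. The stretches lie at chr1:110675034-110675190 on the minus strand for KCNA3, chr11:17734531-17734773 on the plus strand for KCNC1 and chr2:26692472-26692689 on the plus strand for KCNK3.
KCNA3: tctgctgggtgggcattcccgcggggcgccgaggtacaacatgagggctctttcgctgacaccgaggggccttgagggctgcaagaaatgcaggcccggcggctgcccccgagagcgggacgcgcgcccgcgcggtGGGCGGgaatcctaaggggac
KCNC1: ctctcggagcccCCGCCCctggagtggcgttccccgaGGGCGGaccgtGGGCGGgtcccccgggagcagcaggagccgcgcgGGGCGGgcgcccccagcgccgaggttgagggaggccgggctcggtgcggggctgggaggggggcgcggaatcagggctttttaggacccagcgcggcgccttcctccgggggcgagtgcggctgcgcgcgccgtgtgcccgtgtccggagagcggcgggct
KCNK3: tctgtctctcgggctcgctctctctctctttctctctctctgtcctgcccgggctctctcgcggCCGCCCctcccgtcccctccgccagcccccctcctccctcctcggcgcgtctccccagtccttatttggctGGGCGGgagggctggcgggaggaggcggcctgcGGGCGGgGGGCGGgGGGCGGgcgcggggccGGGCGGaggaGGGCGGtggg

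The printed stretches hold 1 GC box for KCNA3, 4 for KCNC1 and 7 for KCNK3, and G and C make up 70.7%, 79% and 76.6% of their bases. Over the full windows of 300 bases, read on both strands, 25 of 34 member windows (73.5%) held a GC box, against 45% of 35116 windows of all genes. The member windows were also richer in G and C, with a median of 70.5% against 58.7%. Each member has 1 window, while the windows of all genes were not reduced to 1 per gene or to the genes measured. The shares here and below therefore compare sets chosen in different ways. A GC box was present in 7 of 9 windows of genes that rose, 11 of 13 of genes that fell and 7 of 12 of genes that did not pass. The E-box CACGTG was found in 1 member window, that of KCNH4 (2.94%, against 7.26% of all windows). The C/EBP-ATF element TGATGNAA was found in 1, that of KCNT2 (2.94% against 3.62%). The cAMP response element TGACGTCA, which shares the letters ACGT with the E-box, was found in 0 of 34 (1.85% of all windows). These motifs were chosen after the changes were known, and a match describes letters in these windows only.

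To compare levels between genes, normalised reads were divided by the length of the longest annotated transcript. A few members supplied most of the family's transcripts on that per-kilobase scale. KCNH2 (ENSG00000055118, chromosome 7, 150944961 to 150978315), the pore subunit known as hERG that is found in many neuroblastoma lines, ranked first in both media, at 3254 ± 407 normalised reads per kb in EMEM/F12 and 2505 ± 67.5 in HPLM. KCNT1 (ENSG00000107147, chromosome 9, 135702185 to 135795508), a sodium-activated channel, ranked second at 1094 ± 98.6 and 1158 ± 4.63 per kb. KCNK3 was the third in EMEM/F12, and together these 3 genes made up 65.2% of the family's per-kilobase sum in EMEM/F12 and 60.3% in HPLM. KCNA3 moved from rank 13 to rank 3 and from 0.942% to 9.0% of that sum. In EMEM/F12 KCNK3 (919.7 ± 85.6 per kb) was followed by KCNJ8 (833 ± 39.2 per kb). The per-kilobase sum over all 48 members was 8498, 8467 and 7223 in EMEM/F12 libraries 1 to 3 and 6736, 6582 and 6794 in HPLM, a log2 ratio of -0.27 ± 0.08. The media did not overlap in this sum, and EMEM/F12 library 3 lay nearest to HPLM.

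**Figure D2:**
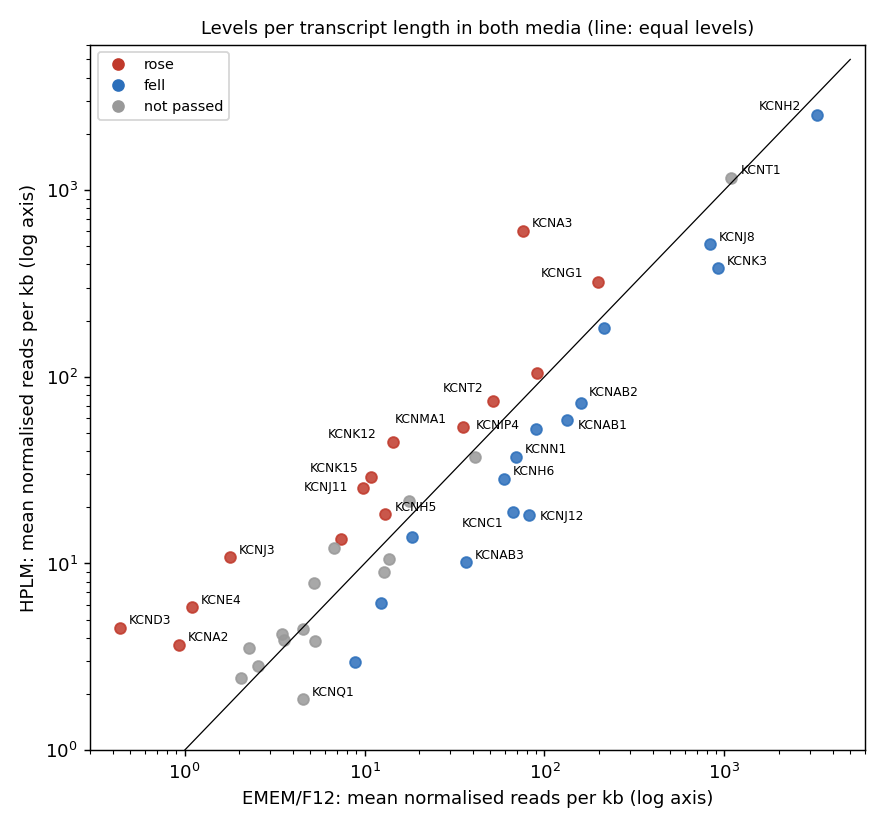
Mean normalised reads per kb of transcript in EMEM/F12 (horizontal, log axis) and HPLM (vertical, log axis) are plotted for 44 members, with a line of equal levels and colours for genes that rose, fell or did not pass. KCNH2 and KCNT1 lie at the top near the line, KCNA3 stands far above it (75.6 to 603 per kb) and KCNJ12 far below it (81.8 to 18.3 per kb).

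Of the 21 voltage-gated pore subunits 8 rose and 8 fell in the authors' deposited table. These and the class and group counts below stand beside 26.8% of all genes that rose and 28.8% that fell. Both Shaker-related genes rose. KCNA3 (ENSG00000177272, chromosome 1, 110672465 to 110675033) encodes a delayed rectifier best known from T lymphocytes and also present in neurons. It stood at 174, 217 and 191 normalised reads in EMEM/F12 libraries 1 to 3 and at 1587, 1529.6 and 1532 in HPLM libraries 1 to 3. All HPLM libraries were far above all EMEM/F12 libraries, a 7.98-fold difference (log2 ratio 3.0 ± 0.10, with an adjusted p of 1.63e-228 in the authors' deposited table). KCNA2, an axonal member of the same group, rose from 11.1 ± 1.19 to 43.6 ± 5.68 normalised reads.

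The cytoplasmic beta subunits that bind Shaker-related channels and modify their inactivation and surface expression went the other way, and all 3 in the table fell. KCNAB1 (ENSG00000169282, chromosome 3, 156037701 to 156539138) was at 613, 608 and 543 normalised reads in EMEM/F12 and at 252, 272 and 258 in HPLM (log2 ratio -1.17 ± 0.06). KCNAB2 (ENSG00000069424, chromosome 1, 5991466 to 6101193) was at 708, 699 and 642 in EMEM/F12 and at 301, 320.3 and 304 in HPLM (log2 ratio -1.15 ± 0.05), and 111 of its exonic bases overlap NPHP4, which fell too (-0.37 ± 0.08). KCNAB3 (ENSG00000170049, chromosome 17, 7921859 to 7929803) was the least abundant, at 95.9, 101 and 73.6 normalised reads in EMEM/F12 and 23.8, 30.4 and 20.6 in HPLM (log2 ratio -1.86 ± 0.21). For each of the 3 genes the lowest EMEM/F12 library lay above the highest HPLM library. The media likewise did not overlap in 75.2% of all genes with a mean of at least 50 normalised reads, called or not. Of all 8 auxiliary subunits 4 fell, 1 rose and 3 did not pass in the authors' deposited table. Their summed level per kb, which was not tested, was 441 ± 27.7 in EMEM/F12 and 217 ± 8.48 in HPLM (log2 ratio -1.02 ± 0.06).

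Shaw-related channels repolarise fast-firing neurons. KCNC1 (ENSG00000129159, chromosome 11, 17734774 to 17856804) was at 550.4, 521 and 517 normalised reads in EMEM/F12 and at 165, 139 and 145 in HPLM. This 3.54-fold fall (log2 ratio -1.82 ± 0.08, adjusted p of 3.59e-51 in the authors' deposited table) left no overlap between the media. KCNC4, of the same group, fell by a smaller ratio (-0.42 ± 0.07).

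Among Shal-related genes, which carry transient A-type currents, KCND3 rose from 3.23 ± 2.07 to 33.5 ± 3.70 normalised reads. Its EMEM/F12 level lies near the limit that a count of 0 allows, so the log2 ratio of 3.38 ± 0.54 is imprecise. KCND1 did not pass (77.9 ± 6.20 and 96.2 ± 24.3 normalised reads). Of the calcium-binding KCNIP subunits that attach to Shal channels, KCNIP4 was at 221, 238 and 206 normalised reads in EMEM/F12 and at 124, 139 and 129 in HPLM, and it fell (-0.76 ± 0.08). KCNIP2 did not pass (-0.36 ± 0.22).

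KCNG subunits form no channel alone and modify the voltage-gated channels they assemble with. KCNG1 stood at 705, 744 and 771 normalised reads in EMEM/F12 and at 1212, 1156 and 1219 in HPLM (0.69 ± 0.04), whereas KCNG3 fell from 34.0 ± 4.61 to 11.3 ± 4.67. The 2 KCNG genes thus moved in opposite directions, with KCNG1 the more abundant per kb in EMEM/F12 (199 ± 8.85 against 8.89 ± 1.21).

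KCNQ5, a subunit of the slow, muscarinic-suppressed M channels that restrain neuronal firing, was at 275 ± 21.0 and 249.8 ± 8.81 normalised reads and did not pass, with a DESeq2 95% interval of -0.39 to 0.10 for its log2 fold change. KCNQ1, the cardiac and epithelial member of this group, was low at 20.6, 17.4 and 6.22 normalised reads in EMEM/F12 and 4.75, 7.36 and 6.26 in HPLM. Its media overlapped through EMEM/F12 library 3, and its adjusted p was 0.0891 in the authors' deposited table. It was called lower without that library (log2 fold change -1.64 in DESeq2 on the recovered reads) and by edgeR with TMM scaling, and it was not tested after edgeR's filterByExpr filter. KCNQ1 shares 121 exonic bases with the antisense RNA KCNQ1OT1, which was at 173 ± 12.6 and 161 ± 6.89 normalised reads. Strand is not recorded by this library chemistry, and reads in such overlaps cannot be assigned to 1 of the genes. KCNE4, a small membrane subunit that inhibits KCNQ1 channels, rose from 3.62 ± 0.894 normalised reads, near the limit that a count of 0 allows, to 19.2 ± 6.13.

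Ether-a-go-go-related genes gave log2 ratios from -1.07 to 0.59. KCNH2 was at 14893, 15015 and 11931 normalised reads in EMEM/F12 and at 10853, 10407 and 10949 in HPLM, and it fell (-0.38 ± 0.11, adjusted p of 0.000993 in the authors' deposited table). The media did not overlap, although EMEM/F12 library 3 lay nearer to HPLM than to the other libraries of its medium. Its close relative KCNH6 fell more, from 251, 245 and 186 to 87.4, 129.8 and 108 normalised reads (-1.07 ± 0.21). KCNH5 rose from 147 ± 3.73 to 207 ± 7.25 normalised reads (0.49 ± 0.04). Small differences were called for KCNH4 (-0.22 ± 0.08) and KCNH8 (0.22 ± 0.05). The call of KCNH4 was lost without EMEM/F12 library 1 or 2 or HPLM library 1 or 2. That of KCNH8 was lost without EMEM/F12 library 1 or 3 or HPLM library 1 or 2, and with spike-in scaling. KCNH1 (0.59 ± 0.31) and KCNH3 (0.12 ± 0.32) did not pass, and KCNH1, which shares exonic bases with overlapping gene models, was called higher by edgeR and without EMEM/F12 library 2.

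**Figure D3:**
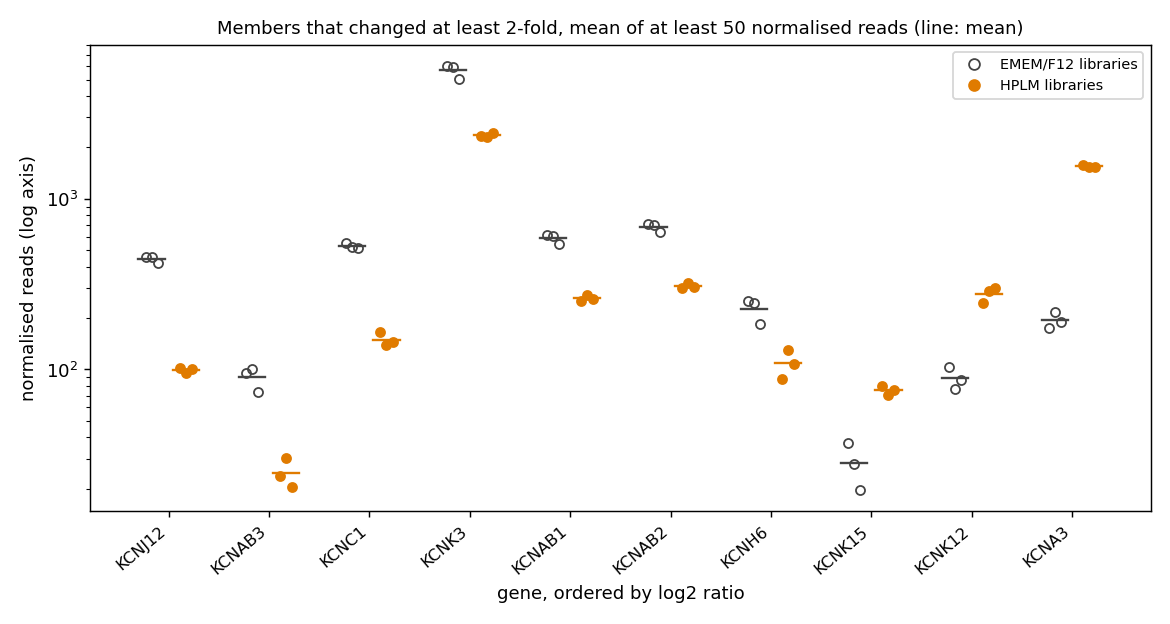
Normalised reads (log axis) of every library are shown for 10 members with a mean of at least 50 normalised reads that changed at least 2-fold, ordered by log2 ratio, with open circles for EMEM/F12, filled circles for HPLM and a line at each mean. The genes run from KCNJ12 (444 to 99.2) on the left to KCNA3 (194 to 1549.6) on the right. In each of the 10 genes, which were chosen as called and changed at least 2-fold, the media do not overlap. This holds for every called member, and for 75.2% of all genes at that mean, called or not.

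Of the 6 calcium- and sodium-activated pore subunits 2 rose and 1 fell in the authors' deposited table. KCNMA1, the pore of the large-conductance BK channel, was at 407, 404 and 466 normalised reads in EMEM/F12 and at 645, 649 and 661 in HPLM (0.61 ± 0.07). Its accessory genes KCNMB3 (0.24 ± 0.39) and KCNMB4 (-0.47 ± 0.24) were under 50 normalised reads and did not pass. KCNMB3 shares 3403 exonic bases with PIK3CA on the opposite strand and resembles the pseudogene KCNMB3P1 at 98.2% identity over 2715 bases, so its level is uncertain.

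KCNT1 was at 8285, 7930.4 and 6942 normalised reads in EMEM/F12 and at 8157, 8148 and 8208 in HPLM. The media overlapped and it did not pass, with a log2 ratio of 0.08 ± 0.08 and a DESeq2 95% interval of -0.02 to 0.19. It was called higher in DESeq2 without EMEM/F12 library 1 (log2 fold change 0.14). Without EMEM/F12 library 3 its log2 fold change was 0.009 and it was not called. Its relative KCNT2 rose from 328, 305 and 315 to 454, 462 and 435 normalised reads (0.51 ± 0.04). KCNN1, a small-conductance calcium-activated channel gene that shapes the afterhyperpolarisation, fell from 256, 281 and 219 to 153, 117 and 136 normalised reads (-0.90 ± 0.15). KCNN2 (0.62 ± 0.23) and KCNN3 (0.14 ± 0.22) lay under 50 normalised reads and did not pass.

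All 5 inward rectifiers were called, 3 higher and 2 lower, in the authors' deposited table, where 55.6% of all genes passed. KCNJ8 and KCNJ11 encode the alternative pores of ATP-sensitive channels, which couple membrane potential to metabolism. KCNJ8 (ENSG00000121361, chromosome 12, 21764955 to 21775581) was at 2049, 2038 and 1881 normalised reads in EMEM/F12 and at 1209, 1232 and 1232 in HPLM (-0.70 ± 0.04). KCNJ11 was at 28.9, 25.6 and 28.0 in EMEM/F12 and at 70.3, 63.5 and 80.5 in HPLM (1.38 ± 0.11). The 2 pore genes therefore moved in opposite directions, and KCNJ8 stayed the more abundant per kb in both media (833 ± 39.2 against 9.81 ± 0.609, and 512 ± 5.67 against 25.5 ± 3.05). Of the sulfonylurea receptor genes that complete these channels, ABCC9 fell from 195 ± 5.45 to 52.1 ± 3.50 normalised reads (-1.90 ± 0.06). ABCC8 did not pass (9.92 ± 5.79 and 11.6 ± 1.57 normalised reads).

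KCNJ12 (ENSG00000184185, chromosome 17, 21376197 to 21419872), a strong inward rectifier that stabilises the resting potential, was at 456, 458 and 418 normalised reads in EMEM/F12 and at 102, 94.8 and 101 in HPLM. This is a 4.48-fold fall with no overlap (log2 ratio -2.16 ± 0.05). KCNJ18 matches its longest transcript at 98.2% identity over 2012 bases, so reads of this gene and its copy may have been split or lost and the value is uncertain. KCNJ3, a subunit of channels opened by G proteins, rose from 11.3, 9.30 and 6.22 to 61.8, 51.5 and 49.2 normalised reads (2.60 ± 0.26). KCNJ14 rose from 29.6 ± 4.01 to 53.9 ± 8.73 normalised reads, shares 350 exonic bases with GRWD1, which fell (-0.26 ± 0.04), and was not called without EMEM/F12 library 1 or HPLM library 1.

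Of the 8 tandem-pore leak channel genes 2 rose, 2 fell and 4 did not pass in the authors' deposited table. KCNK3 (ENSG00000171303, chromosome 2, 26692690 to 26733420) encodes an acid-sensitive leak channel that helps set the resting potential of chromaffin and other neuroendocrine cells. It was at 6014, 5928 and 5061 normalised reads in EMEM/F12 and at 2320.4, 2289.8 and 2443 in HPLM, a 2.41-fold fall with no overlap (log2 ratio -1.27 ± 0.08, adjusted p of 1.44e-92 in the authors' deposited table). The sum per kb over the class, most of it KCNK3, was 985 ± 75.4 in EMEM/F12 and 491 ± 13.3 in HPLM and was not tested, while the median log2 ratio of the 8 genes was 0.13.

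KCNK12, a member with little channel activity of its own, rose from 104, 76.7 and 87.1 to 244, 289 and 301 normalised reads (1.64 ± 0.16). KCNK15, which is related in sequence to KCNK3, rose from 37.1, 27.9 and 19.7 to 79.8, 70.9 and 76.0 (1.42 ± 0.26). KCNK15 shares 506 exonic bases with RIMS4 on the opposite strand, a gene at 2959 ± 273 and 2834 ± 129.8 normalised reads that did not pass. KCNK1 fell from 26.8 ± 1.95 to 13.2 ± 2.29 normalised reads, and that call was lost without any 1 of the 6 libraries.

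The mechanosensitive channel gene KCNK2 was at 10.3 and 8.14 normalised reads in EMEM/F12 libraries 1 and 2, at 49.8 in library 3, and at 47.5, 42.3 and 32.2 in HPLM. It did not pass with all libraries, and it was called higher without EMEM/F12 library 3. The fibroblast marker sum given above was likewise high in EMEM/F12 library 3 and in HPLM, and its part in the level of KCNK2 was not tested. Within EMEM/F12, KCNK6 (12.4, 15.1 and 32.1 normalised reads) and KCNK5 (38.1, 36.0 and 69.5) were also highest in library 3, and neither passed. In HPLM, KCNK6 was at 30.4, 21.2 and 20.6 normalised reads. KCNK5 was at 27.6, 42.3 and 31.3 there, near its level in EMEM/F12 libraries 1 and 2. KCNK10 was at 34.0 ± 6.10 and 33.6 ± 9.63 normalised reads, and did not pass.

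Genes that support potassium channels without a KCN symbol were mixed. Among 19 potassium pump and cotransporter genes 5 rose and 5 fell in the authors' deposited table, close to the 26.8% and 28.8% of all genes, with a median log2 ratio of 0.06. WNK2, a kinase gene of the cotransporter pathway, fell (-1.32 ± 0.17). FXYD6, a pump modulator gene, fell (-0.59 ± 0.06). Among 22 channel partner genes 6 rose and 8 fell, with a median of -0.14. ADAM22 (0.56 ± 0.07), which encodes a membrane partner of Shaker-related channels, and AKAP9 (0.47 ± 0.04), which encodes a scaffold of KCNQ1, rose. CNTNAP2, which clusters Shaker-related channels along axons, fell (-1.24 ± 0.08), and so did the calmodulin gene CALM2 (-0.43 ± 0.03) and the membrane protein gene AMIGO1 (-0.43 ± 0.12). Of 8 other potassium-permeable channel genes 3 rose and 3 fell, with a median of 0.04. CNGB1, a cyclic nucleotide-gated subunit gene, rose (2.03 ± 0.06), the lysosomal channel gene TMEM175 rose (1.05 ± 0.08), and the pacemaker channel gene HCN3 fell (-0.91 ± 0.10).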

How the data were processed

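Polyadenylated RNA of BE(2)-C cells was made into TruSeq version 2 libraries, per the labels' protocols, and this chemistry carries no strand information. The submitters' processing notes name Trimmomatic (0.36), STAR (2.5.2b), Subread (1.5.2), DESeq2 and the genome build GRCh38, without saying what each was used for. How strand was handled in counting, which annotation release served and whether low genes were removed is not given in the sources used here. One table of 16051 lines was deposited, 46 of them spike-ins. Per the file headers, its log2 and p-value columns come from the authors' comparison of the media. The deposited values of the 6 libraries are a normalised read signal, and no other per-sample column was present. Dividing them by the value of 1 read gave whole reads for 100% of values, within 0.01 reads.

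The authors' test was the main one, with the 3 columns of a medium treated as repeat libraries of 1 sample. Alternatives on recovered reads used DESeq2 1.42.0 and edgeR 4.0.16 (R 4.3.3), with all p-values adjusted by Benjamini-Hochberg over all genes, and both were tested on simulated data. The quasi-likelihood test of edgeR with TMM called 10268 of 16005 genes and 35 of the 48 members. Means, SDs, ratios and figures were made with Python 3.11.15, pandas 2.3.3, numpy 2.4.6 and matplotlib 3.10.9. Coordinates, transcript lengths and exon overlaps come from GENCODE release 29, and copies of at least 95% identity over 200 bases from BLAST 2.17.0.

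The members and gene lists were chosen with earlier results of these data known. Named genes were called members with a mean of at least 50 normalised reads and a log2 ratio of at least 1 in size, the 5 highest per kb, up to 3 further called members per class, and KCNH2, KCNMA1 and KCNQ1. Of the other lists up to 3 called genes per direction with a mean of at least 100 could be named. Members outside this rule, and ABCC8, AMIGO1 and the genes overlapping members, were named after their values were seen. Some members and listed genes enter the counts, medians and sums but are not reported here individually or plotted.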

Additional observations from a re-analysis of the deposited data

How the results depend on the processing

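None of the 33 members called in the authors' deposited table changed sign under any setting tried. As the media did not overlap in these members, leaving out a single library could hardly change a sign. The members called higher and lower numbered 14 to 17 and 15 to 17 when each library was left out in turn. Requiring a 2-fold change left 8 higher and 11 lower, and a mean of at least 50 normalised reads left 10 higher. With a 2-fold change, the pumps and cotransporters had 1 higher and 1 lower, the channel partners 0 higher (6 at an adjusted p under 0.05 in the authors' deposited table) and 2 lower, and the other channels 0 lower. The other channels had 1 lower with the replicate block and 1 to 3 when single libraries were left out. The median log2 fold change of the members, 0.099 in the authors' deposited table, was -0.221 for members with a mean of at least 50, 0.139 in edgeR after filterByExpr, 0.0344 with spike-in scaling and -0.00334 to 0.109 when single libraries were left out, so its sign is not settled. Spike-in scaling moved the median of all genes to -0.054.

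Whether the library numbers pair the libraries is not stated in the labels. Deviations of same-numbered libraries from the mean of their medium correlated at -0.10, -0.10 and -0.20. With 3 libraries per medium, and EMEM/F12 library 3 apart from the others, these correlations cannot decide whether numbers mark shared batches. With the library number as a replicate block, 14 members were higher and 15 lower, and the calls of KCNH4, KCNH8, KCNJ14 and KCNK1 were lost, as they were at an adjusted p under 0.01 of the authors' deposited table. Members under 50 normalised reads made up 11 of the 15 that did not pass, so depth limits what can be said of them.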
